A study of Mus musculus with 2 samples.

Results

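The genes described here encode the carriers that bring organic anions and cations into cells from outside: the Slco family, also called organic anion transporting polypeptides, and the Slc22 family of organic cation, carnitine and organic anion transporters. Members were all protein-coding genes whose symbol is Slco followed by a number, a letter and a number, or Slc22a followed by a number, with the exception of Slc22a18. Of 43346 Ensembl genes in each gene table, 38 met this rule, 14 of them Slco genes and 24 Slc22 genes. They are compared below as detected genes and as genes that stayed below the detection level. A gene counted as detected when its deposited TPM (a level corrected for transcript length and scaled to the same total in every library) was 1 or more in each liver.

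In the liver these carriers sit mainly in the membrane that faces the blood. Slco proteins take up bile salts, bilirubin conjugates, steroid conjugates, thyroid hormones and many drugs without using the sodium gradient. Slc22 proteins divide by substrate: organic cation transporters carry amines and cationic drugs, a second branch carries carnitine and ergothioneine, and organic anion transporters carry urate, dicarboxylates and anionic drugs, chiefly in the kidney. Several members are known for levels in rodent liver that rise after birth or differ between adult males and females.

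RNA was measured in whole livers of 2 newborn mice of the inbred strain B6NCrl on postnatal day 0, with no treatment or transgene named in the labels. Pup 1 and pup 2 were littermates from 1 dam, each library came from 1 liver, and no sex was collected. The assay was called total RNA-seq on RNA over 200 nt in size, started from 10 ng with spike-in RNAs added, per the labels; these also cite the manual of a kit that primes on poly(A) tails, and they do not say whether that priming was used. With 1 group, the design implies a description of levels and of the spread between littermates.

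The tables held 42124582 expected counts (estimated reads per gene) for pup 1 and 41443673 for pup 2. A gene with 0 counts may thus still have held up to 3, or 0.0712 CPM in pup 1 and 0.0724 CPM in pup 2, where CPM is a count scaled to the total of its library. This floor covers counting error only. All 8 hepatocyte markers were detected, with a summed TPM of 45038 in pup 1 and 43873 in pup 2. All 6 erythroid markers were detected as well, with a summed TPM of 36340 in pup 1 and 38894 in pup 2. Endothelial, macrophage and stellate markers were also detected, 6 of 6 in each list. Which cell type held the RNA of a member was not tested. Of the 6 kidney markers 0 were detected, and Umod, Slc12a1, Slc34a1 and Aqp2 had 0 counts in both livers. The livers differed in markers of other tissues, and the source of that RNA was not tested. Skeletal muscle markers, 8 of 8 higher in pup 2, summed to 57.4 TPM in pup 1 and 851 in pup 2. Pancreas markers, also 8 of 8 higher in pup 2, summed to 2.33 and 121 TPM, with Try5, Ins2 and Cel at 0 in pup 1.

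Of the 38 members 8 were detected, or 21.1%, against 52.9% of all 21474 protein-coding genes. The share was 58.6% among 336 other Slc genes and 68% among 50 Abc genes, most of which encode ATP-driven exporters. A further 2 members, Slco4c1 and Slc22a21, reached 1 TPM in pup 1 only, 20 had counts but stayed below 1 TPM in both livers, and 8 had 0 counts in both. The share of members with 0 counts in both livers, 21.1%, was the same to this precision as among all protein-coding genes, where it was also 21.1%. The median member stood at 0.170 ± 0.0354 TPM (SD, n = 2), below the median of 1.58 ± 0.0354 TPM over protein-coding genes and of 2.52 ± 0.0884 TPM over other Slc genes. As these are bulk tissues, fewer cells of a type and less RNA per cell cannot be told apart.

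Together the members held 0.0257% ± 0.00182 of TPM. Summed over members, TPM came to 269.9 in pup 1 and 244.2 in pup 2, and 1 gene, Slco1b2, made up most of it. In the order of mean levels, 4 of 37 neighbouring steps separated genes whose authors' credible intervals (ranges of TPM that cover counting and read assignment, of a level not given in the files) lay apart in both livers. These were the steps from Slco1b2 to Slc22a4, from Slc22a4 to Slco2a1, from Slco2a1 to Slc22a5, and from Slc22a15 to Slco4c1. This order is of gene levels over all transcripts, and the last 2 steps turn round on protein-coding transcripts alone. There Slco2a1 stood at 4.24 ± 0.495 TPM and Slc22a5 at 6.01 ± 0.226. Slc22a15 stood at 0.640 ± 0.212 TPM and Slco4c1 at 1.28 ± 0.467. Slc22a5, Slc22a23 and Slc22a15 were not apart from the members next to them between Slc22a5 and Slc22a15, and no neighbours below Slco4c1 were apart.

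**Figure D1:**
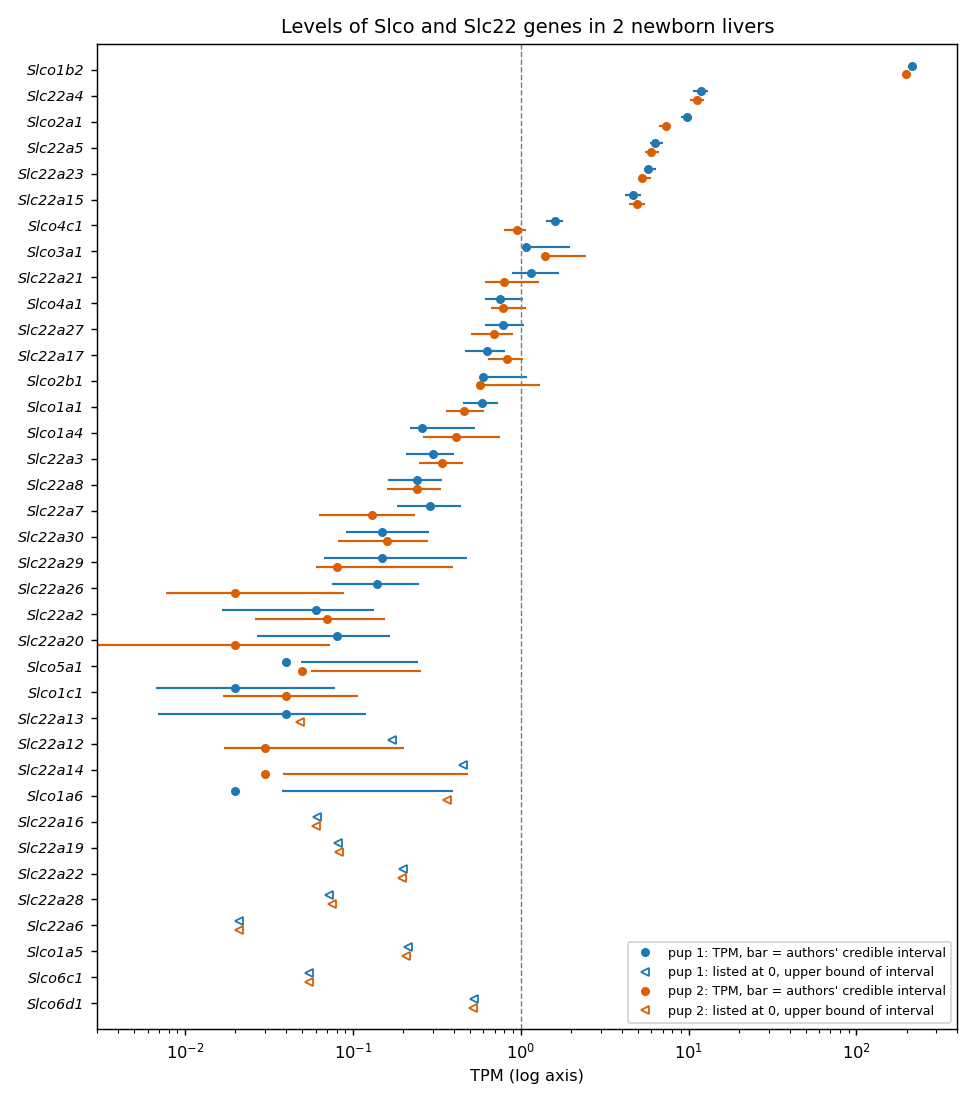
TPM on a log axis for 37 members, ordered by mean level, with pup 1 in blue, pup 2 in orange and the authors' credible intervals as bars; open triangles mark the upper bound where a gene is listed at 0. Slco1b2 stands alone near 206 TPM, 5 genes lie between 4.67 and 11.8 TPM, and most members lie left of the dashed line at 1 TPM.

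Slco1b2 was the leading member in both livers. It encodes the hepatocyte uptake carrier that is the mouse counterpart of human SLCO1B1 and SLCO1B3 and takes up bile salts, conjugated bilirubin and statins (chromosome 6, 141629518 to 141686646, plus strand; positions here and below are those of GRCm38). Its level was 215 TPM in pup 1 and 197 in pup 2, a mean of 206 ± 12.6 TPM resting on 24157 and 22338 counts. The higher value was in pup 1, and the intervals of 208 to 217 TPM and 191 to 200 TPM did not overlap. Slco1b2 made up 79.6% of all member TPM in pup 1 and 80.7% in pup 2. It ranked 521 among protein-coding genes.

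The other 5 Slco1 genes lay below 1 TPM in both livers. Slco1a1, a carrier of bile salts and steroid conjugates prominent in adult mouse liver, stood at 0.590 TPM in pup 1 and 0.460 in pup 2, with 69.7 and 56 counts. Slco1a4, which carries bile salts and digoxin, stood at 0.260 and 0.410 TPM. The levels of Slco1a1 and Slco1a4 were not apart: their log2 ratio was -0.67 ± 0.72, and part of the reads was divided between them. Slco1b2 exceeded Slco1a1 by 8.63 ± 0.17 on the log2 scale, a 395-fold difference in TPM with intervals apart in both livers. Slco1c1, a thyroxine carrier of brain barriers, had 2 and 4 counts, Slco1a6 had 2 and 0, and Slco1a5 had 0 in both.

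The sequences around the start sites of Slco1b2 and Slco1a1 are shown because the genes lie in the same run and stand 395-fold apart in level. Each is the window of 250 bases before to 50 bases after the start that RefSeq gives on GRCm38.p6, written 5′ to 3′ on the gene's own strand. Slco1b2 is chr6:141629268-141629567 on the plus strand and Slco1a1 is chr6:141946913-141947212 on the minus strand. Capitals mark CG pairs and matches, on either strand, to 3 motifs, which are the TATA box letters TATAAA, the core CAAAGTCCA of a site for the factor HNF4, and the nuclear receptor half-site AGGTCA.
Slco1b2: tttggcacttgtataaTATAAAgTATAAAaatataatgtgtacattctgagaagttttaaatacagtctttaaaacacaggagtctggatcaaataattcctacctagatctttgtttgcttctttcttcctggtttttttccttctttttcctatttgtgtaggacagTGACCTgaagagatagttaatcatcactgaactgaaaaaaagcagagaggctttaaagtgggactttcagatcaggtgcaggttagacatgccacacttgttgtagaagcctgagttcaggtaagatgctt
Slco1a1: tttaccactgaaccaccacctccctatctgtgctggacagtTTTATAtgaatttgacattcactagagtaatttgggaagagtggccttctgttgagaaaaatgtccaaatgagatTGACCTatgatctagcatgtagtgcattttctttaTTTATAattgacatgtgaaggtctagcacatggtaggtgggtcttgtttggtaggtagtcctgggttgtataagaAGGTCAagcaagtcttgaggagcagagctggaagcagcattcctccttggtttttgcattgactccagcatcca

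Neither window holds a CG pair. The Slco1b2 window has a GC content of 35.3% and that of Slco1a1 42%. In Slco1b2, TATAAA begins 234 and 227 bases before the start, and AGGTCA lies on the minus strand from 81 bases before it. In Slco1a1, AGGTCA begins 24 bases before the start and lies on the minus strand from 134 bases before it, and TATAAA lies on the minus strand from 209 and 99 bases before it. A match is a description of letters and not a bound site.

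Among the Slco2 to Slco6 genes 2 of 8 were detected, and their summed level was 12.5 ± 1.96 TPM. Slco2a1, the prostaglandin uptake carrier (chromosome 9, 102988712 to 103096002, plus strand), stood at 9.85 TPM in pup 1 and 7.39 in pup 2, a mean of 8.62 ± 1.74 TPM. Pup 1 was the higher, and the intervals did not overlap. Slco3a1, which carries prostaglandins and thyroid hormone (chromosome 7, 74275419 to 74554780), stood at 1.07 and 1.40 TPM, just inside the detection level; both values lie below the authors' intervals of 1.11 to 1.95 and 1.45 to 2.46 TPM, which belong to their posterior mean estimate. Slco4c1, a carrier of digoxin and thyroid hormone best known from kidney (chromosome 1, 96816270 to 96872171), lay just outside it with 1.61 TPM in pup 1 and 0.95 in pup 2. Its intervals did not overlap.

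The remaining Slco2 to Slco6 genes lay below 1 TPM in both livers. Slco2b1, which carries steroid sulphates and statins and is abundant in adult human liver, stood at 0.600 and 0.570 TPM with 91 and 87 counts. It was lower than Slco2a1 in both livers, by a log2 ratio of -3.87 ± 0.24. Slco1b2 exceeded Slco2b1 by 8.46 ± 0.04 on the log2 scale. Slco4a1, a thyroid hormone carrier, stood at 0.750 and 0.790 TPM. Slco5a1, whose substrates are little known, had 7 and 8 counts. The testis genes Slco6c1 and Slco6d1 had 0 counts in both livers, which for Slco6d1 left an authors' upper bound of 0.526 TPM in pup 1 and 0.521 in pup 2.

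The organic cation transporters Slc22a2 and Slc22a3 were not detected. Slc22a2, known from kidney, had 4.13 and 5.22 counts, or 0.0600 and 0.0700 TPM. Slc22a3, a carrier of monoamines outside neurons, stood at 0.300 TPM in pup 1 and 0.340 in pup 2. The Slc22a3 exons overlap those of Plg, which encodes plasminogen, by 420 bases on the opposite strand. Plg had 96970 and 93586 counts against 36 and 42 for Slc22a3, and whether counting used strand is not stated, so the Slc22a3 value is uncertain.

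The carnitine and ergothioneine branch was detected in 2 of 3 genes. Slc22a4, the ergothioneine carrier (chromosome 11, 53983123 to 54028090, minus strand), stood at 11.8 TPM in pup 1 and 11.3 in pup 2, the second highest member. Slc22a5, the high-affinity carnitine uptake carrier (chromosome 11, 53864542 to 53891660, minus strand), stood at 6.32 and 5.96 TPM. Both genes had overlapping intervals between the livers. Slc22a5 was lower than Slc22a4 in both livers, with a log2 ratio of -0.91 ± 0.02. Slc22a21, a further carnitine carrier found in mouse (chromosome 11, 53949965 to 53980332), stood at 1.16 TPM in pup 1 and 0.800 in pup 2. Its intervals of 0.886 to 1.70 TPM and 0.615 to 1.29 TPM overlapped, and both held 1 TPM. The counts were 63.2 and 57, and its protein-coding transcript stood at 0.330 and 0.370 TPM. Slc22a5 exceeded Slc22a21 by 2.67 ± 0.32 on the log2 scale.

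The windows before the Slc22a4 and Slc22a5 starts are shown for contrast with Slco1b2, in the same form. Slc22a4 is chr11:54028055-54028354 and Slc22a5 is chr11:53891654-53891953, both on the minus strand.
Slc22a4: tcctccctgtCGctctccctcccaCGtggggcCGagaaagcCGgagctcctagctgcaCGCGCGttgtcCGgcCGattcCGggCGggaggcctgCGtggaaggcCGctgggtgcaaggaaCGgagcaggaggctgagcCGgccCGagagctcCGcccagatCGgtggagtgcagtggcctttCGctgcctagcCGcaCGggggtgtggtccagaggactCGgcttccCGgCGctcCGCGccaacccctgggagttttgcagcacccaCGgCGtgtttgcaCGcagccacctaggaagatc
Slc22a5: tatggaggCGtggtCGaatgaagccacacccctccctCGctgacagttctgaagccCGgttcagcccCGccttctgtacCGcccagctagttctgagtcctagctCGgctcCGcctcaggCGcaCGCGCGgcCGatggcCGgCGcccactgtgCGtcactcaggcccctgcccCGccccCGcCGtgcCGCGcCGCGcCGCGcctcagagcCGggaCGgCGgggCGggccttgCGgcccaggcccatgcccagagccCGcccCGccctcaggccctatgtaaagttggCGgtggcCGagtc

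The Slc22a4 window holds 29 CG pairs at a GC content of 69% and that of Slc22a5 holds 34 at 72.7%. Neither matches any of the 3 motifs, so every capital marks a CG pair.

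None of the 13 organic anion transporters was detected, and their summed level was 1.88 TPM in pup 1 and 1.37 in pup 2. The highest was Slc22a27, at 0.790 and 0.690 TPM. Slc22a7, a carrier of cyclic nucleotides and dicarboxylates known from adult liver and kidney, had 20 counts in pup 1 and 9 in pup 2, or 0.290 and 0.130 TPM. Slc22a8, a basolateral carrier of kidney tubules, stood at 0.240 TPM in each liver with 28 counts in both. Slc22a6, its kidney partner, had 0 counts in both livers, so no fold is given; the intervals of Slc22a7 and Slc22a8 lay above its upper bound of 0.0210 TPM. Slc22a30 had 12 and 11 counts and Slc22a28 had 0 in both, but these genes share 703 of their 100-nt stretches, so the division between them is uncertain. Slc22a19 and Slc22a22 also had 0 counts in both livers. The urate carriers Slc22a12 and Slc22a13 had 0 and 1, and 2.70 and 0 counts. Slc22a20, Slc22a26 and Slc22a29 had at most 11 counts in either liver.

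Of the 5 remaining Slc22 genes 2 were detected. Slc22a23, an orphan carrier (chromosome 13, 34179158 to 34345182), stood at 5.75 TPM in pup 1 and 5.29 in pup 2. Slc22a15, whose human form carries zwitterions such as ergothioneine (chromosome 3, 101855776 to 101924453), stood at 4.67 and 4.93 TPM. The livers overlapped in both genes. Slc22a17, the lipocalin 2 receptor, stood at 0.630 and 0.830 TPM, below Slc22a23 by a log2 difference of 2.93 ± 0.37. The sperm genes Slc22a16 and Slc22a14 had 0 counts in both livers and 0 and 2 counts.

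Of 14 pairs of members compared within each liver, 13 had intervals apart in both. In 11 of these the member named first in the list of pairs was the higher and in 2 the lower, an order set by the list. The pairs were chosen, and no share over all possible pairs was computed. The counts therefore describe these pairs only. A ratio could not be formed for 4 of the pairs because a member is listed at 0. With n = 2, an exact two-sided sign permutation has 0.5 as its smallest possible p, and p-values are therefore left out.

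Many members lie in runs of related genes, and levels within a run differed widely. The Slco1 run on chromosome 6 spans 799 kb and 9 protein-coding genes, of which Slco1b2 was the single one detected. Its nearest protein-coding neighbours, Slco1c1 on one side and Gm5724 on the other, had at most 4 counts in either liver. In a run on chromosome 1, Slco4c1 and Slco6c1 on one side and Slco6d1 on the other enclose 4 protein-coding genes of other families, D1Ertd622e, Ppip5k2, Gin1 and Pam, all between 7.07 and 20.8 TPM. The organic anion run on chromosome 19 spans 955 kb, and 0 of its 8 members were detected. The carnitine run on chromosome 11 spans 164 kb, with Slc22a21 the lowest of its 3 genes and placed between the others.

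**Figure D2:**
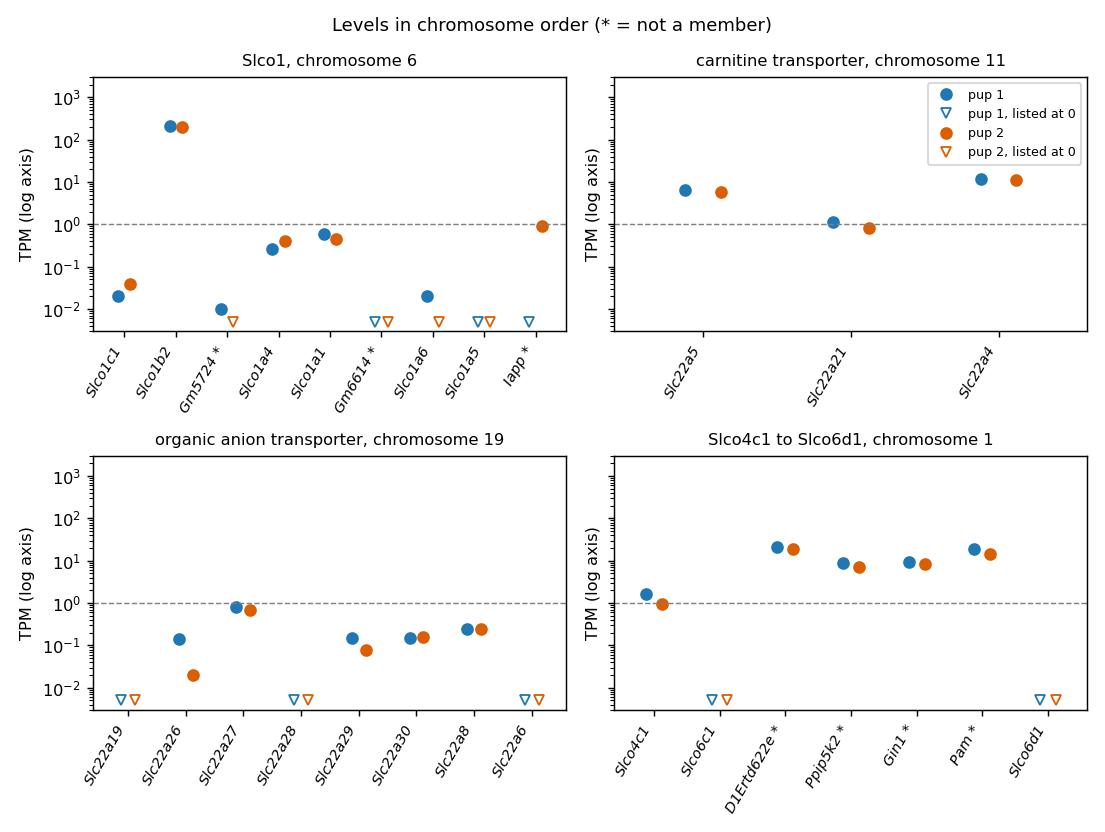
TPM on a log axis of protein-coding genes in chromosome order for 4 runs that hold members, with pup 1 in blue and pup 2 in orange, open triangles for genes listed at 0 and asterisks for genes that are not members. Slco1b2 stands at 215 and 197 TPM among genes below 1 TPM, and all 8 genes of the chromosome 19 run lie below the dashed line at 1 TPM.

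A start-site window was found in RefSeq for 33 of 38 members, 38 windows in all, and for 6 of the 8 detected members. The median detected window had 29 CG pairs and a GC content of 67.5%, against 2.5 CG pairs and 47.3% for the 32 windows of members that were not detected. Over all 32851 windows of the table the medians were 7 CG pairs and 52.7%. Slco1b2, with 0, was the exception among the detected members; the others held 18 (Slco2a1), 29 (Slc22a4 and Slc22a15), 34 (Slc22a5) and 38 (Slc22a23). At 18 or more CG pairs, a level chosen after the values were seen, lay 5 of 6 detected windows, 2 of 32 others (Slco4c1 and Slco4a1) and 29.7% of all windows.

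TATAAA on either strand was in 8 of 38 member windows and in 13.6% of all windows. AGGTCA was in 5 of 38 and in 16.3% of all windows, and CAAAGTCCA was in 0 of 38 and in 0.475% of all windows.

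The transcripts behind the gene levels differed between members. Protein-coding transcripts held 98.2% ± 0.12 of the Slco1b2 level and 97.9% ± 0.453 of that of Slc22a5 (SD, n = 2, shares of TPM as deposited). Transcript types are those of GENCODE M21. In Slc22a4, the protein-coding transcript Slc22a4-201 held 77.3% in pup 1 and 84.2% in pup 2, and the processed transcript Slc22a4-203, which has no open reading frame annotated, held 21.6% and 15.8%.

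Slco2a1 and Slc22a15 stood out for transcripts that are not annotated as coding. In Slco2a1, the coding Slco2a1-201 stood at 4.59 TPM in pup 1 and 3.89 in pup 2, and Slco2a1-203, annotated as a target of nonsense-mediated decay, at 5.08 and 3.32 TPM. The order of these transcripts changed between the livers and their intervals overlapped in each. In Slc22a15, the processed transcript Slc22a15-202 stood at 3.69 and 4.16 TPM, and the coding Slc22a15-201 at 0.600 and 0.490 TPM, with intervals apart in both livers. Coding transcripts of Slc22a15 held 13.5% ± 4.88 of its level, or 0.640 ± 0.212 TPM, so its coding level was below the detection level used for genes. The level of Slco3a1 was divided among 3 coding transcripts, Slco3a1-202, at 54.9% and 61.1%, Slco3a1-201, at 43.8% and 28.2%, and Slco3a1-203, at 1.3% and 10.7%.

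**Figure D3:**
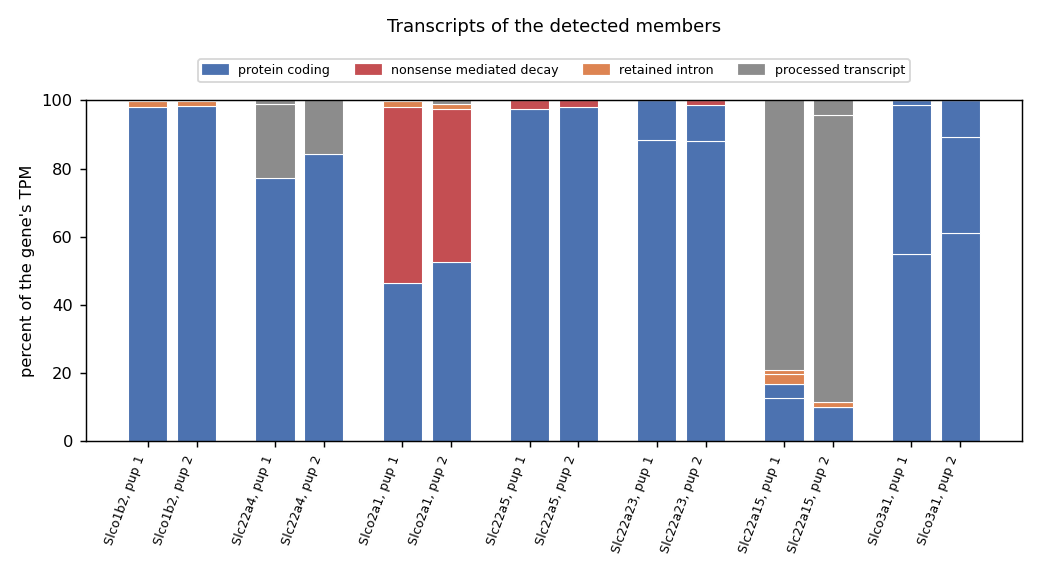
Percent of the gene's TPM by transcript for 7 detected members, 1 bar per liver, coloured by the GENCODE M21 transcript type, with white lines between transcripts. Grey processed transcripts fill most of both Slc22a15 bars (Slc22a15-202 at 79.0% and 84.3%), and Slco2a1 is split between coding and nonsense-mediated decay transcripts.

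The livers were compared on log2(TPM + 1), where low genes appear less changed than they are. Among the 9 members with a mean of 1 TPM or more, 0 were at least 2-fold apart on this scale with intervals that did not overlap, and over all 12711 genes at that level 80 were, or 0.629%. Intervals lay apart with the lower value in pup 2 for 4 of 9 members, among them Slco1b2, Slco2a1 and Slco4c1, against 13.8% of all genes. They lay apart with the higher value in pup 2 for 0 of 9, against 6.27% of all genes. At 1.5-fold on the same scale, 1 of 9 was lower in pup 2 with intervals apart, against 0.472% of all genes. On plain TPM, Slco4c1 was also past 1.5-fold, at 1.69 times as much in pup 1. Members below 1 TPM in both livers cannot reach 2-fold on the log2(TPM + 1) scale. Of these, Slc22a7 with 20 and 9 counts, Slc22a26 with 11 and 2 and Slc22a20 with 5 and 1 were over 2-fold lower in pup 2 on plain TPM. The exact 95% interval of the Slc22a7 count ratio ran from 0.183 to 1.05, and none was computed for Slc22a26 and Slc22a20. Slco1c1, with 2 and 4 counts, was 2-fold higher in pup 2. No fold could be formed for Slc22a13 and Slco1a6, at 0 in pup 2, or for Slc22a12 and Slc22a14, at 0 in pup 1. On log2(TPM + 1) the median of the 9 was -0.10 and that of all genes -0.05. In pup 2, 7 of the 9 were lower and 2 higher, beside 8009 lower and 4658 higher of the 12711 genes. Each ratio compares 2 animals with 1 library each and has no replicate check.

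Muscle and pancreas markers, given above, were higher in pup 2. Bile duct markers, 5 of 5 lower there, summed to 105 TPM in pup 1 and 75.6 in pup 2. Most of that sum was Spp1, at 90.4 and 64.3 TPM. Intervals lay apart for Spp1, Krt19 and Epcam and overlapped for Krt7 (2.09 and 1.94 TPM) and Sox9 (2.23 and 2.16 TPM). Of all 12711 genes at a mean of 1 TPM or more, 8009 were lower in pup 2. The part of these markers in the differences between the livers was not tested.

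Slco4c1, Slco2a1 and Slco1b2 lay within the middle 95% of the log2 ratios of genes within a factor of 2 of their own level. Slco4c1 had a log2 ratio of -0.42 within a range of -0.61 to 0.72, on 276 and 163 counts. Slco2a1 had a log2 ratio of -0.37 within -0.46 to 0.37. Slco1b2, the most deeply counted member, had a ratio of -0.12 within -0.27 to 0.25, and its count ratio of 0.940 per library depth had an exact 95% interval of 0.923 to 0.957, for counting error only.

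**Figure D4:**
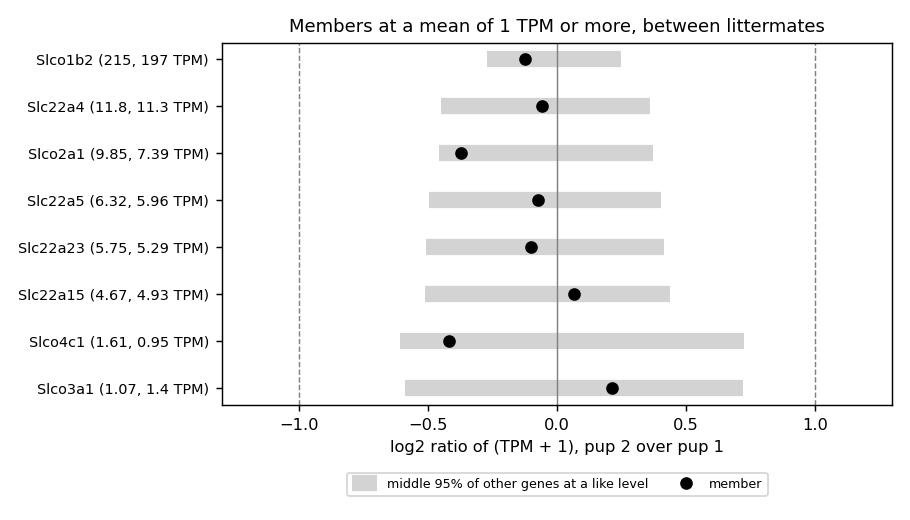
Log2 ratio of (TPM + 1), pup 2 over pup 1, for 8 members with a mean of 1 TPM or more (black points), with grey bars for the middle 95% of other genes within a factor of 2 of the same level and dashed lines at 2-fold. The 8 points shown lie inside their grey bars, with Slco4c1 at -0.42 the farthest from 0.

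The carriers that work beside the members in hepatocytes were mostly detected. Of 12 bile acid and anion partners 9 were, with a median of 12.9 TPM in pup 1 and 13.2 in pup 2. Most of these partners are Abc genes, of which 68% were detected, beside 52.9% of all protein-coding genes. Slc10a1, the sodium-dependent bile acid uptake carrier, stood at 439 and 435 TPM, above Slco1b2 in both livers. The log2 ratio of Slco1b2 over Slc10a1 was -1.09 ± 0.08, and the intervals lay apart in both livers. Abcb11, the bile salt export pump of the canalicular membrane, stood at 65.7 and 64.9 TPM. Abcc2, which exports conjugated bilirubin into bile, stood at 32.6 and 32.8 TPM, and Slco1b2 exceeded it by 2.65 ± 0.09 on the log2 scale. The 3 partners that were not detected were Abcc4, Abcb1b and Slc51a.

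Organic cations also leave hepatocytes through a separate carrier. Slc47a1, which exports organic cations across the canalicular membrane, stood at 26.5 TPM in pup 1 and 23.9 in pup 2. Its relative Slc47a2 had 2 counts in each liver.

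All 9 measured genes of carnitine synthesis and use were detected, beside 52.9% of all protein-coding genes. The list held 10 genes, and Tmlhe had no value matched to its symbol. Their medians were 87.0 TPM in pup 1 and 85.3 in pup 2. Slc25a20, which carries acylcarnitines into mitochondria, stood at 99.8 and 90.7 TPM, and the log2 ratio of Slc22a5 over it was -3.95 ± 0.04. Bbox1, the last enzyme of carnitine synthesis, stood at 22.3 and 24.2 TPM, and Cpt1a, which forms acylcarnitines at the outer mitochondrial membrane, at 122 and 121 TPM.

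All 15 regulators of hepatic uptake carriers were detected, beside 52.9% of all protein-coding genes. Hnf4a, a nuclear receptor of the hepatocyte programme, stood at 24.1 TPM in pup 1 and 21.8 in pup 2. Ppara, a fatty acid sensor known to act on Slc22a5, stood at 161 and 145 TPM. Of the 5 scaffold and partner proteins 4 were detected, beside the same 52.9%. Among them was Pdzk1, which binds the tails of several Slco and Slc22 proteins, at 50.3 and 42.7 TPM. Rsc1a1 was not detected, with 37.7 counts in pup 1 and 0 in pup 2.

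**Figure D5:**
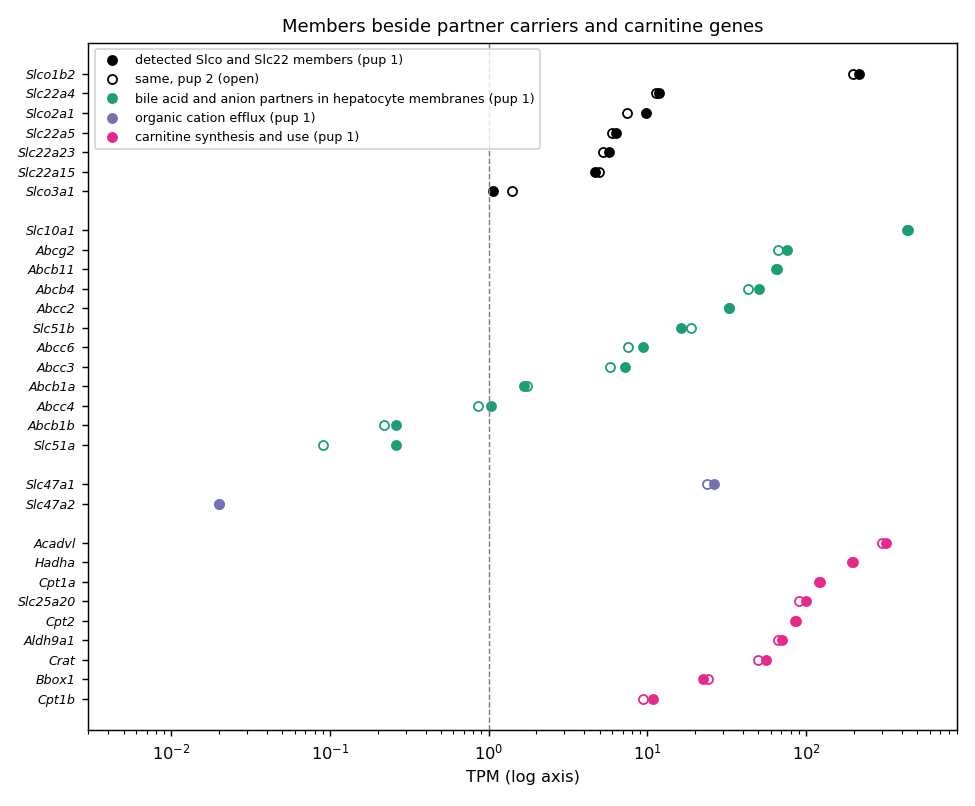
TPM on a log axis of 7 detected members (black), bile acid and anion partners (green), organic cation exporters (purple) and genes of carnitine synthesis and use (pink), with filled circles for pup 1 and open circles for pup 2. Slc10a1, at 439 and 435 TPM, lies right of Slco1b2, and the carnitine genes lie right of Slc22a5, at 6.32 and 5.96 TPM.

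Some member values rest on reads divided between related genes. Counts that were not whole summed to whole numbers, within 0.011, for Slc22a27 with Slc22a29 (63 and 53) and, in pup 1, Slc22a5 with Slc22a21 (717) and Slco1a1 with Slco1a4 (104). Of the 100-nt stretches in their M21 transcripts, Slc22a5 shares 12.9% with Slc22a21, and Slc22a13 shares 21.8% with the pseudogene Slc22a13b-ps. Slco1b2, Slc22a4, Slco2a1, Slc22a23, Slc22a15 and Slco3a1 share none with any other gene. Slc22a12 exons overlap those of Nrxn2 by 682 bases on the opposite strand, and those of Slco2b1 overlap the antisense gene Gm15635, which had 0 counts in both livers.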

How the data were processed

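The authors deposited a gene table and a transcript table per library, in the layout that RSEM writes, on mm10 with GENCODE M4 per the deposited notes. For the aligner and counter, names and versions were not given in the sources used here. The authors deposited expected counts, which divide reads that match several genes. TPM, deposited by the authors, is per effective length (99 nt less than length) and scaled over all rows; their posterior mean TPM has the credible intervals, so a low TPM can lie outside them. FPKM, deposited by the authors, served as an alternative. Percent of the gene's TPM per transcript was deposited by the authors.

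Of the 69691 rows per gene table, 43346 were Ensembl genes, and 42462 matched GENCODE M21 (GRCm38), the source of symbols, types and coordinates, by identifier without version. The pattern matched 40 genes; Slc22a18 is left out by the rule and Slco6b1 is typed as a pseudogene.

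The members and gene lists were chosen with earlier results of these data known. Members detected in both livers are named with both values; the others are named where they belong to a pair, reach 1 TPM in 1 liver or lead a subfamily, and further members with few counts, Plg, Gm5724 and the genes between Slco4c1 and Slco6d1 were added after their values were seen. Transcripts are named for detected members whose leading transcript held under 80% in either liver. Pairs counted as apart when intervals overlapped in neither liver and the order was the same in both. Livers were compared on log2(TPM + 1). Nothing in the labels gives further batches. Values of 1 member, which counts over all members include, and of 1 regulator and 1 motif are not reported here.

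Alternatives were other detection levels, FPKM, posterior means, pseudocounts, TMM (edgeR 4.0.16) and DESeq2 1.42.0 size factors on expected counts rounded to whole numbers (R 4.3.3), and leaving out each liver. Python 3.11.15, pandas 2.3.3, numpy 2.4.6, scipy 1.17.1 and matplotlib 3.10.9 were used. Of the steps, only the rule for a 2-fold difference between livers was tested on simulated counts, which held counting error alone.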

Additional observations from a re-analysis of the deposited data

How the results depend on the processing

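The number of detected members followed the detection level: 14 at 0.5 TPM, 5 at 5 TPM and 15 at 1 CPM, a scale that does not correct for length, against 8 at 1 TPM. It was 7 by FPKM, 8 by posterior mean TPM, and 8 to 10 when a single liver was used. The members' share was 0.0691% of expected counts and 0.0283% of protein-coding TPM, against 0.0257% of all TPM, and 0.0244% to 0.0270% in a single liver.

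Of the members at a mean of 1 TPM or more, 0 were 2-fold apart between the livers with a pseudocount of 0.1, TMM, DESeq2 size factors or FPKM, and 1 was 1.5-fold apart on log2(TPM + 1). Dropping the filter at a pseudocount of 1 could add no call below 1 TPM. The log2 ratio of Slc22a4 was -0.06 on TPM and 0.0057 with TMM, a scaling that moved the median of all genes from -0.05 to 0.0089; the cause was not tested. Pairs apart numbered 13 in either liver alone and 9 when the mean had to lie over 3 SD from 0, a rule that 4 pairs with a member at 0 could not enter. Of the further values for single genes, 26 levels stayed within 1 SD and 6 moved, and 35 ratios between livers, which have no SD, kept their direction and 1 changed sign. With 2 livers, a level from a single liver always lies within 1 SD of the mean, so those levels could not move. Another pseudocount cannot change the sign of a ratio. The numbers that stayed were thus partly fixed in advance and are no measure of stability. Of the levels that moved, Slco3a1 stood at 1.72 TPM by posterior mean.

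No paired analysis was possible because there is 1 group. Members with under 20 counts in a liver, 12 of the 20 with counts below 1 TPM, are limited by depth.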
